A study of Mus musculus with 45 samples.

Results

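The loci described here are the surroundings of 10 genes through which mouse embryonic stem cells read LIF and BMP signals: Stat3, Socs3, Lifr, Il6st, Gbx2, Id1, Id2, Id3, Bmp4 and Smad7. A peak, that is, an accessible region called from ATACseq on the merged libraries, was a member when its summit lay within 40000 bp of the annotated 5′ end of one of these genes (GENCODE vM21, GRCm38/mm10). This gave 190 of 184964 peaks, from 13 near Bmp4 to 26 near Smad7. The distance rule uses no measured value, but the genes were chosen with earlier results of these data known. The study asked how fast accessible chromatin is lost when a stem cell transcription factor is degraded. SOX2-FKBP and NANOG-FKBP cells are E14 (129/Ola) embryonic stem cells, and OCT4-FKBP cells are V6.5 embryonic stem cells made in another laboratory. Each line carries the FKBP degradation tag on both alleles of the named factor, and 500 nM dTAG-13 directs the tagged protein to the proteasome. The libraries were control cells (NT) or cells treated for 0.5, 1, 2, 6 or 24 h in SOX2-FKBP (2 libraries at each time) and for 2, 6 or 24 h in OCT4-FKBP (2 libraries) and NANOG-FKBP (3 libraries, 2 for NT). NT is labelled not treated, and the methods give it as the DMSO vehicle, added alongside dTAG-13. All groups shared serum-free medium with LIF, the MEK inhibitor PD0325901 and the GSK3 inhibitor CHIR99021, and no BMP4 was listed in it. Each line goes back to selected clones. The methods mention a further, independent clone for SOX2, but no source used here ties a library to it or says whether the replicate libraries of a time came from separate cultures, so the p-values measure only the spread between these libraries. Protein level is not measured by this assay, so depletion of the tagged factors was not checked in these data. SOX2-FKBP changes come from a fit of 12 libraries, and OCT4-FKBP, NANOG-FKBP and between-line values come from a fit of 27 libraries. Normalized counts are therefore compared only within a line.

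LIF binds its receptor LIFR, which pairs with the shared signalling chain gp130, the product of Il6st. The receptor pair activates JAK kinases, which phosphorylate STAT3, and STAT3 enters the nucleus and activates genes that keep the cells undifferentiated. Socs3 encodes the feedback inhibitor of this pathway, and Gbx2 encodes a homeobox factor that is a known STAT3 target. BMP4 acts through type I and type II receptor kinases on SMAD1 and SMAD5, which activate the Id genes. ID1, ID2 and ID3 bind bHLH factors and block their differentiation programmes, and SMAD7 is an inhibitory SMAD. SOX2 and OCT4 often bind side by side on a composite DNA element, and both are known to open chromatin.

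Each peak is called by its gene and the distance of its summit in bp from the gene's 5′ end, negative for upstream and positive for downstream in the direction of the gene. A first set of sequences is shown because these peaks hold the main contrast between both lines: Lifr +24966, Il6st −1416 and Socs3 −26222 lost accessibility by 2 h after loss of either SOX2 or OCT4, whereas Lifr −8552, Lifr −10687 and Stat3 −12700 differed between the lines. They are 251 bases of the forward strand of GRCm38 around the summit, and capitals mark SOX letters (CATTGT or CTTTGT), the POU octamer (ATGNAAAT), the SOX-POU composite (TTGT, 1 base, ATGCAAA, with at most 1 mismatch) and STAT letters (TTCNNNGAA) on either strand.
Lifr +24966 (chr15:7115455-7115705, intron of Lifr): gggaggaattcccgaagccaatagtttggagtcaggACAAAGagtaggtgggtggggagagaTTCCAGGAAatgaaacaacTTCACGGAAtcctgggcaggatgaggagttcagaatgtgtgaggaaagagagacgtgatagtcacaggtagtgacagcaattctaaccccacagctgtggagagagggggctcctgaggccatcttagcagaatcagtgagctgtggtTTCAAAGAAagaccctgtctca
Lifr −8552 (chr15:7081937-7082187, intergenic): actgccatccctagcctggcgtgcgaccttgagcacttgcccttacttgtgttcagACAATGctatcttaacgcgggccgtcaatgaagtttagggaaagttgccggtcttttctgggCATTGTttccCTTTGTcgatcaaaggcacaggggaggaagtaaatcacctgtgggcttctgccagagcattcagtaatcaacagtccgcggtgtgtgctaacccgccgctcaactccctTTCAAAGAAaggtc
Lifr −10687 (chr15:7079802-7080052, intergenic): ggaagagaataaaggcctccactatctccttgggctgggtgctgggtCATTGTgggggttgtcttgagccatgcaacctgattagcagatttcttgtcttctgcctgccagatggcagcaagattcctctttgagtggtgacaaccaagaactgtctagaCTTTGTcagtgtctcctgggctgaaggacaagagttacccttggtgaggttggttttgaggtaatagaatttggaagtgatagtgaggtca
Il6st −1416 (chr13:112462529-112462779, intergenic): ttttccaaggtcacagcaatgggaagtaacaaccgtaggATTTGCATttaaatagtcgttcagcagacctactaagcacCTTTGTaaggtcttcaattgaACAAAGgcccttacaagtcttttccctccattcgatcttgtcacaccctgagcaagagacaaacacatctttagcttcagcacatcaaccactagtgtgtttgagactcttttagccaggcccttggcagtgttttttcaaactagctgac
Socs3 −26222 (chr11:117996144-117996394, intron of Pgs1): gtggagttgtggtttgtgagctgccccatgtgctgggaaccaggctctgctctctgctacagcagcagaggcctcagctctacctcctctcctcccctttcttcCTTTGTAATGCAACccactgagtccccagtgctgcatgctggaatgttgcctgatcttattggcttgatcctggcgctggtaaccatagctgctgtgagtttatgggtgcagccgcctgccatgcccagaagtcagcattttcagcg
Stat3 −12700 (chr11:100952115-100952365, intergenic): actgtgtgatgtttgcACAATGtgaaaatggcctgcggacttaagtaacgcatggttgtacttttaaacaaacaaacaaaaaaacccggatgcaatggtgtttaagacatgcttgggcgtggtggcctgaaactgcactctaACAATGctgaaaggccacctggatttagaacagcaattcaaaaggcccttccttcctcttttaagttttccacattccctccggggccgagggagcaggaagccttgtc
The Lifr −8552 window held 3 SOX matches, including a pair 4 bases apart beside the summit. Lifr −10687 and Stat3 −12700 held 2 each and no POU octamer. Il6st −1416 held a POU octamer and 2 SOX matches. Lifr +24966, also lost in both lines, held SOX and STAT matches and no POU octamer. Of the 183 windows of member peaks tested in the fit of 27 libraries, Socs3 −26222 was the only one that held the composite within 150 bp of the summit, with 1 mismatch.

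A second set is shown because it holds the letters of the paired GC site known from BMP-responsive Id gene enhancers (GGCGCC, 5 bases, GTCT, in capitals on either strand). The windows are 151 bases of the forward strand.
Id1 +3252 (chr2:152739428-152739578, intergenic): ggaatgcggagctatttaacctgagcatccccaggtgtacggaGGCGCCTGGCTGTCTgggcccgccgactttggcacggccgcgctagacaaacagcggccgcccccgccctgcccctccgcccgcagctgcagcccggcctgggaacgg
Id2 −1724 (chr12:25098789-25098939, intergenic): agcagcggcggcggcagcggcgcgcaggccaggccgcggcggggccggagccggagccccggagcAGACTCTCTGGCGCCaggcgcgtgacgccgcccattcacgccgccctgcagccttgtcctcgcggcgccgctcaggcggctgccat
Id3 −3015 (chr4:136140407-136140557, intergenic): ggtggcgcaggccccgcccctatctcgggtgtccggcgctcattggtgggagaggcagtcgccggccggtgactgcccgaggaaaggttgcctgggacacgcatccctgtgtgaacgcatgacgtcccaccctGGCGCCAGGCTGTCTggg
Of the 183 windows of member peaks tested in the fit of 27 libraries, these 3 held this pair within 150 bp of the summit. Over all peaks tested, 55 of 166284 windows (0.0331%) held it. One such peak lay near each of the 3 Id genes.

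Of the 190 peaks, 183 passed the count filter in each fit and 5 passed in neither. Lost and gained mean an edgeR quasi-likelihood adjusted p under 0.05 (Benjamini-Hochberg over all peaks tested) with a negative or positive log2 change against the NT libraries of the same line. These fits held no term for the replicate number (replicate block), although the numbers pair the libraries in SOX2-FKBP and OCT4-FKBP. Calls with the block are given as an alternative. Over all times, 35 member peaks were lost at least once in SOX2-FKBP (19.1% of those tested, against 15.2% of all peaks tested) and 24 gained (13.1% against 10.8%). The OCT4-FKBP numbers were 39 lost (21.3% against 14.2%) and 26 gained (14.2% against 13.3%), and in NANOG-FKBP 5 were lost (2.73% against 2.46%) and 0 gained (against 0.318%). Of the 190 peaks, 106 (55.8%) were called in no line, against 64.6% of all 184964 peaks. Peaks Lifr −19021, −10687, −5270 and +27602, Stat3 +7745, Socs3 −6409, +800 and +28039, Gbx2 −4744, Id1 +3252, Id2 +923, Id3 −3015 and +3451, Bmp4 −1209, and Smad7 −660 and +20021 are named beside those of the naming rule and were chosen after their values were seen. In bulk chromatin, fewer cells with an open site and a less open site in every cell cannot be told apart.

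After SOX2 depletion the number of member peaks lost grew from 0.5 h to 24 h. At 0.5 h, 6 of 183 were lost (3.28%) against 3.14% of all peaks tested, and 0 were gained against 0.158%. The 0 gained peaks by edgeR stand beside 14 at an unadjusted p under 0.05 and 0 by DESeq2. At 1 h, 13 were lost (7.1%, background 5.46%) and 8 gained (4.37%, background 0.889%). At 2 h, 18 were lost (9.84%, background 7.28%) and 3 gained (1.64%, background 1.46%). At 6 h, 22 were lost (12%, background 9.28%) and 8 gained (4.37%, background 2.66%). At 24 h, 33 were lost (18%, background 14.1%) and 16 gained (8.74%, background 9.17%). Both shares stayed near those of all peaks except for the gains at 1 h, which depended on single libraries, with 10 lost and 1 gained without NT replicate 1, 8 and 1 without NT replicate 2, and 7 and 0 without 1 h replicate 1. All 6 calls at 0.5 h were lost without 0.5 h replicate 1. With the replicate block the lost and gained counts were 11 and 4 at 0.5 h, and at 2 h they were 24 and 13. When libraries were scaled by total counts, the lost and gained counts were 11 and 11 at 1 h, 16 and 8 at 2 h, and 20 and 12 at 6 h. Without NT replicate 2 they were 11 and 2 at 2 h and 16 and 3 at 6 h. No share over all peaks is given for these other settings, so their counts have no background beside them.

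After OCT4 depletion the gained share of the member peaks was above the background at 2 h and 6 h, and the lost share was above it at 24 h. These shares depended on single libraries. Most gains at 2 h were no longer called without NT replicate 1 or without 2 h replicate 1. Many losses at 24 h were no longer called without 24 h replicate 1. At 2 h, 7 of 183 were lost (3.83%, background 5.1%) and 9 gained (4.92%, background 1.92%). At 6 h, 13 were lost (7.1%, background 7.97%) and 12 gained (6.56%, background 4.12%). At 24 h, 37 were lost (20.2%, background 12.7%) and 14 gained (7.65%, background 10.8%). These are counts beside a background, with no test of the list. With the replicate block the lost and gained counts at 2 h were 10 and 29, and those at 6 h were 20 and 30, whereas scaling by total counts gave 7 lost and 5 gained at 2 h. The background shares above are not from these settings and cannot be set beside these counts. The total at 2 h was 6 without NT replicate 1, 7 without 2 h replicate 1 and 9 without 2 h replicate 2. At 6 h it was 16 without NT replicate 1, 15 without NT replicate 2 and 14 without 6 h replicate 1, and at 24 h 24 without 24 h replicate 1.

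The median log2 change of the members stayed near 0 in every line. In SOX2-FKBP it was 0.03 at 2 h against 0.01 over all peaks, and −0.05 at 24 h against 0.04. In OCT4-FKBP it was 0.13 at 2 h against 0.02, and −0.13 at 24 h against −0.01.

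**Figure D1:**
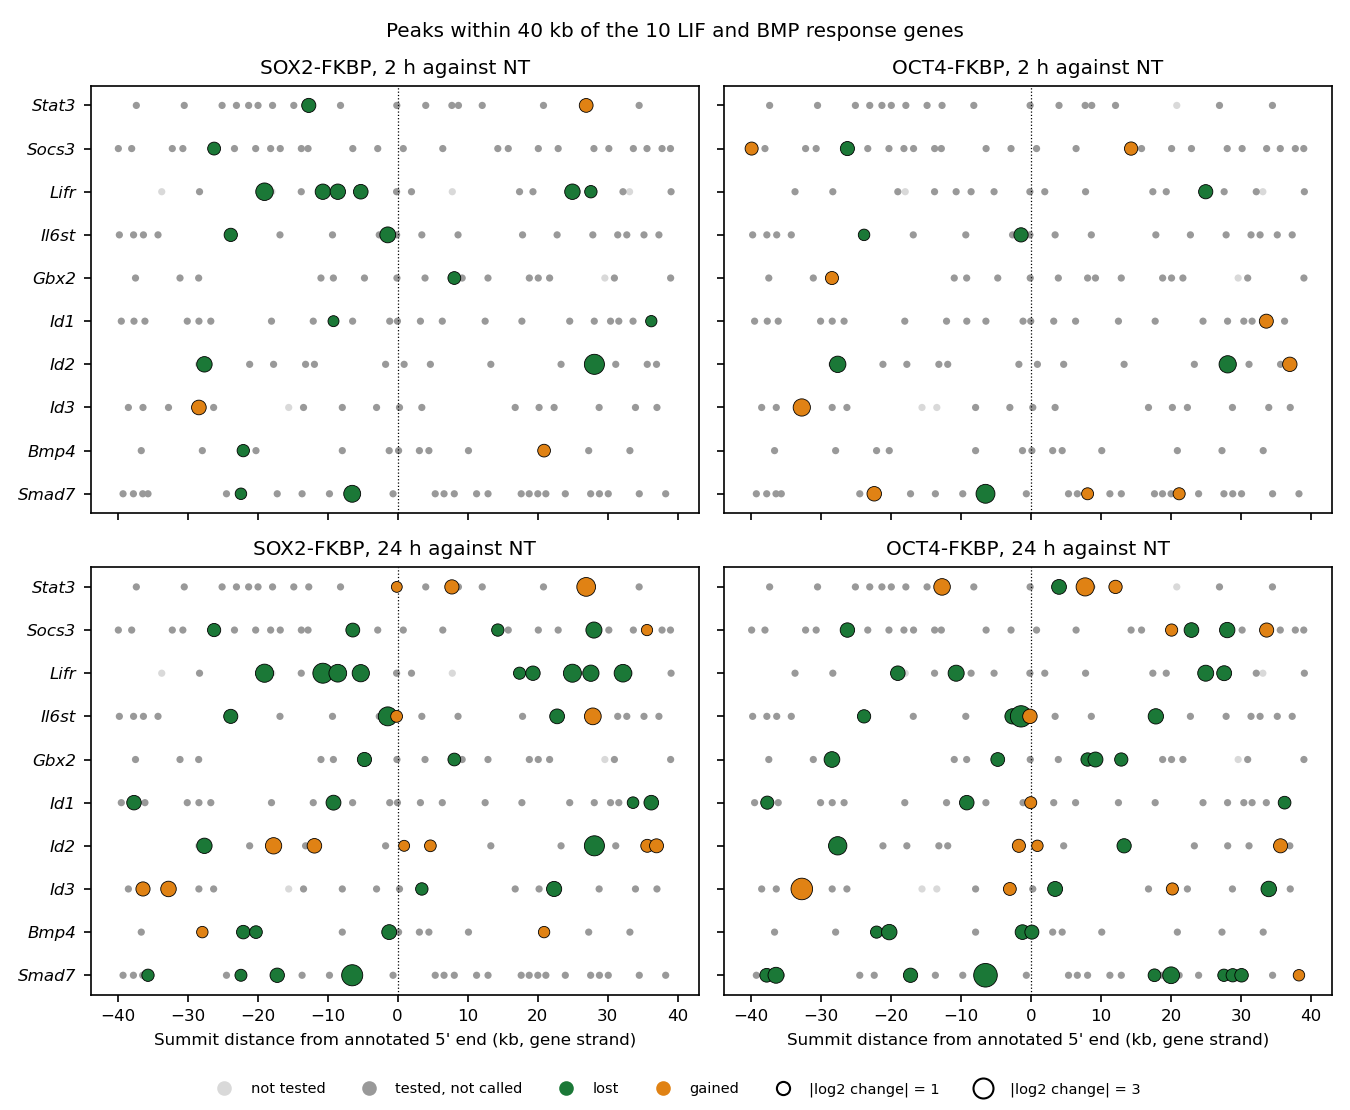
Map of the member peaks by gene (rows) and summit distance from the annotated 5′ end in kb (x axis), in 4 panels for SOX2-FKBP and OCT4-FKBP at 2 h and 24 h against NT, with lost peaks in green, gained peaks in orange, uncalled peaks in grey and point area growing with the size of the log2 change. At 2 h the 6 lost Lifr peaks of SOX2-FKBP stand out, and at 24 h 5 of the 10 genes had both lost and gained peaks in SOX2-FKBP and 7 of the 10 in OCT4-FKBP.

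**Figure D2:**
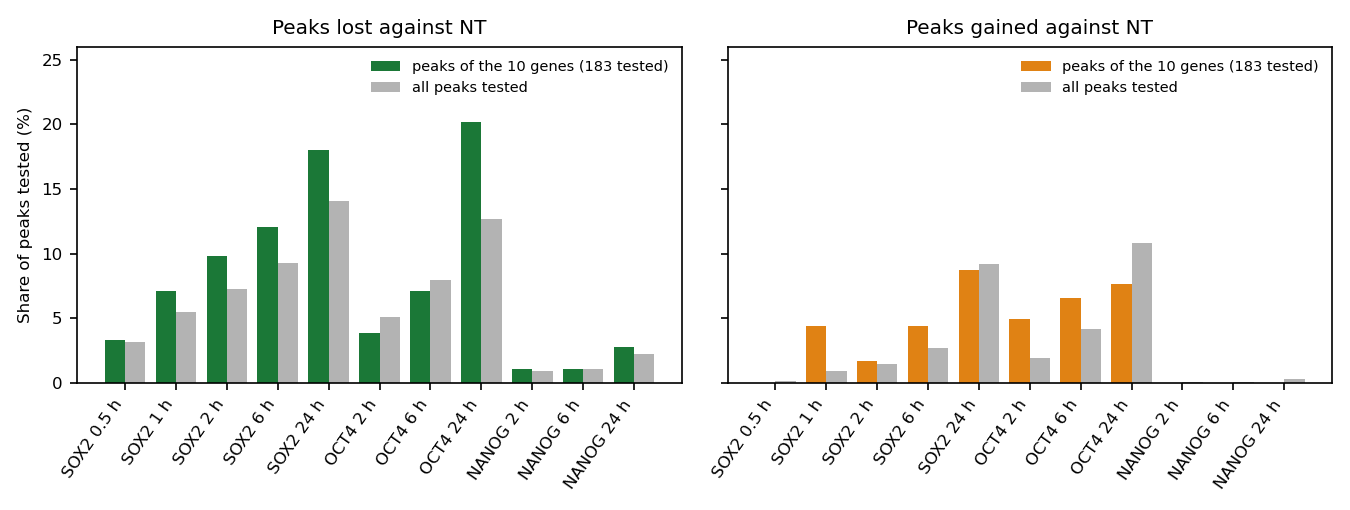
Share (%, y axis) of the 183 tested member peaks (coloured bars) and of all peaks tested (grey bars) that were lost (left) or gained (right) at each time against NT in each line (x axis). In SOX2-FKBP the lost share of the members was 3.28% at 0.5 h and 18% at 24 h, beside 3.14% and 14.1% of all peaks.

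Lifr, which encodes the ligand-binding receptor chain, lost more peaks at 2 h of SOX2 depletion than any other of the 10 genes. Of its 14 tested peaks, 6 were called lost at 2 h (42.9%), 7 were at 6 h (50%) and 9 were at 24 h (64.3%). Over all peaks tested, 7.28%, 9.28% and 14.1% were lost. At each of these times 0 Lifr peaks were gained (0 at an unadjusted p under 0.05, 0 by DESeq2). In OCT4-FKBP 1, 2 and 4 of its 16 tested peaks were lost at 2, 6 and 24 h and 0 gained (2, 1 and 1 at an unadjusted p under 0.05, 0 by DESeq2). Over all peaks, 5.1%, 7.97% and 12.7% were lost in OCT4-FKBP. The gained shares of all peaks were 1.46%, 2.66% and 9.17% in SOX2-FKBP and 1.92%, 4.12% and 10.8% in OCT4-FKBP. These shares stand beside the counts of each gene below, some of which are near them. At 2 h in SOX2-FKBP, Id1 lost 9.09% of its tested peaks and Smad7 7.69%. The intronic Lifr +24966 peak (chr15:7115037-7117291) was lost after depletion of either factor. Its normalized counts in SOX2-FKBP were 406 and 358 in NT, 183 and 216 at 0.5 h, 115 and 147 at 1 h, 126 and 130 at 2 h, 126 and 95.4 at 6 h, and 85.4 and 66.1 at 24 h. Every treated library lay below both NT libraries. The log2 change was −0.96 ± 0.17 (SE) at 0.5 h (adjusted p = 0.000293), −1.58 ± 0.17 at 2 h and −2.34 ± 0.18 at 24 h, and the 0.5 h call was lost without 0.5 h replicate 1 (−0.83). In OCT4-FKBP the counts were 237 and 306 in NT, 93.7 and 133 at 2 h and 49.3 and 116 at 24 h, without overlap, and the log2 change was −1.25 ± 0.25 at 2 h (adjusted p = 0.000511). Mean accessibility at 2 h was 33.5% of NT in SOX2-FKBP and 41.7% in OCT4-FKBP. In NANOG-FKBP the peak had 370 and 343 in NT and 326, 345 and 294 at 24 h, and its log2 change of −0.16 ± 0.23 was not called. SE values are approximate and were obtained from the log2 change and the root of its F statistic.

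The upstream Lifr −8552 peak (chr15:7081655-7082443) went separate ways in the lines. In SOX2-FKBP it had 292 and 238 normalized counts in NT, 120 and 150 at 0.5 h, 92.4 and 87.9 at 2 h, and 65.0 and 47.2 at 24 h. Both NT libraries were above every treated one, and the log2 change was −1.0 ± 0.19 at 0.5 h (adjusted p = 0.000744), −1.56 ± 0.19 at 2 h and −2.25 ± 0.21 at 24 h. In OCT4-FKBP it had 202 and 273 in NT, 368 and 376 at 2 h, 315 and 403 at 6 h, and 151 and 216 at 24 h. The 2 h and 6 h libraries were above NT and the 24 h libraries overlapped with it, and its log2 change of 0.64 ± 0.22 at 2 h missed the threshold (adjusted p = 0.0791) but was called with the replicate block (0.66), as was that at 6 h (0.59 and 0.60). In NANOG-FKBP it had 317 and 220 in NT, 113, 130 and 117 at 2 h, and 88.1, 90.5 and 118 at 24 h. All treated NANOG-FKBP libraries lay below NT, with a log2 change of −1.19 ± 0.23 at 2 h (adjusted p = 0.00303) and −1.43 ± 0.23 at 24 h (adjusted p = 7.72e-05). Single libraries decided some of these calls: the SOX2-FKBP call at 0.5 h was lost without NT replicate 1 (−0.83) or 0.5 h replicate 1 (−0.83), and the NANOG-FKBP call at 2 h without NT replicate 1 (−0.92) or 2 h replicate 1 (−1.18) and at 6 h without NT replicate 1 (−0.76) or 6 h replicate 1 (−0.92).

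Other Lifr peaks with smaller counts were lost at 2 h in SOX2-FKBP. Lifr −10687 (chr15:7079700-7080184) had 60.8 and 73.6 in NT of SOX2-FKBP, 19.8 and 24.9 at 2 h and 9.71 and 6.61 at 24 h. These groups did not overlap, and the log2 change was −1.56 ± 0.28 at 2 h and −3.01 ± 0.34 at 24 h (adjusted p = 1.17e-08). Counts in OCT4-FKBP were 42.1 and 82.4 in NT, 79.9 and 131 at 2 h and 10.1 and 27.8 at 24 h. The 2 h libraries overlapped with NT and the 24 h libraries were below it (−1.75 ± 0.43, adjusted p = 0.00234), a call that was lost without NT replicate 2 (−1.18) or 24 h replicate 1 (−1.17). The 2 h change in OCT4-FKBP (0.75) was called with the replicate block (0.77). Lifr −19021 (chr15:7071178-7071821) fell by 2.18 ± 0.38 at 2 h of SOX2 depletion, from 33.9 and 49.6 to 6.60 and 10.8, and Lifr −5270 (chr15:7085034-7085556) by 1.36 ± 0.24, from 104 and 123 to 32.1 and 54.7. In OCT4-FKBP at 2 h these peaks had log2 changes of 0.42 ± 0.35 and 0.04 ± 0.28, and neither was called. At 24 h Lifr −19021 was lost in OCT4-FKBP too, from 36.6 and 82.4 to 17.4 and 30.9 (−1.34 ± 0.45, adjusted p = 0.0251), a call dropped without NT replicate 2 (−0.63) or 24 h replicate 1 (−0.96), in a fit of the OCT4-FKBP libraries alone (−1.31) and by DESeq2 (−1.25). Lifr −5270 had 52.2 and 75.5 in NT of OCT4-FKBP and 24.6 and 46.3 at 24 h, below NT (−0.87 ± 0.34, adjusted p = 0.0551), which was called with the replicate block (−0.85). Intronic Lifr +27602 (chr15:7118137-7119170) fell by 0.83 ± 0.22 at 2 h in SOX2-FKBP, from 67.7 and 83.5 to 44.3 and 39.8, and this call was lost without NT replicate 2 (−0.69) or 2 h replicate 2 (−0.75) and by DESeq2 (−0.85). In OCT4-FKBP it went from 35.9 and 72.3 in NT to 23.3 and 32.8 at 6 h (−0.97 ± 0.31, adjusted p = 0.0316) and to 11.6 and 29.3 at 24 h (−1.44 ± 0.38, adjusted p = 0.00443), below NT at both times. Both OCT4-FKBP calls were lost without NT replicate 2 (−0.33 and −0.84), that at 6 h also without 6 h replicate 1 (−0.75), with scaling by total counts (−1.02), in the OCT4-FKBP libraries alone (−0.97) and by DESeq2 (−0.95), and that at 24 h also without 24 h replicate 1 (−0.90). The Lifr promoter peak, Lifr −154 (chr15:7089995-7090970), was called at no time. It had 59.9 and 58.0 in NT of SOX2-FKBP and 46.2 and 35.6 at 2 h (log2 change −0.54 ± 0.25, adjusted p = 0.224).

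Il6st, which encodes gp130, had 19 member peaks, of which 2, 2 and 3 were lost and 0, 0 and 2 gained at 2, 6 and 24 h in SOX2-FKBP. The counts in OCT4-FKBP were 2, 4 and 4 lost and 0, 0 and 1 gained. Il6st −1416 (chr13:112462132-112462907) lay next to the promoter and was lost in both lines at every time. In SOX2-FKBP it had 190 and 252 in NT, 94.5 and 131 at 0.5 h, 64.1 and 70.4 at 2 h, and 29.1 and 40.6 at 24 h. The OCT4-FKBP libraries gave 184 and 188 in NT, 76.2 and 79.0 at 2 h, 37.3 and 45.7 at 6 h, and 23.2 and 9.27 at 24 h. No treated library of either line reached its NT libraries. In SOX2-FKBP the log2 change was −0.99 ± 0.19 at 0.5 h, −1.70 ± 0.20 at 2 h and −2.64 ± 0.22 at 24 h, and it was −1.26 ± 0.27 at 2 h (adjusted p = 0.00119) and −3.49 ± 0.36 at 24 h (adjusted p = 1.70e-09) in OCT4-FKBP. The 0.5 h call was lost without NT replicate 2 (−0.78) or 0.5 h replicate 1 (−0.74). In NANOG-FKBP it had 222 and 179 in NT and 185, 285 and 143 at 24 h, which overlapped.

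The Il6st promoter peak, Il6st −150 (chr13:112463485-112464571), moved the other way at 24 h although its summit lies about a kilobase from that of Il6st −1416. It had 135 and 144 in NT of SOX2-FKBP, 110 and 122 at 2 h and 189 and 264 at 24 h. Its OCT4-FKBP counts were 133 and 150 in NT, 183 and 160 at 2 h, and 387 and 321 at 24 h. The 24 h libraries were above NT in both lines, with a log2 change of 0.70 ± 0.17 (adjusted p = 0.00254) in SOX2-FKBP and 1.32 ± 0.22 (adjusted p = 1.50e-05) in OCT4-FKBP. The SOX2-FKBP call was lost without NT replicate 1 (0.65) or 24 h replicate 2 (0.43). The distal Il6st −23844 peak (chr13:112438974-112441070) was lost in both lines, from 245 and 283 to 125 and 132 at 2 h in SOX2-FKBP (−1.03 ± 0.16) and from 392 and 416 to 256 and 262 in OCT4-FKBP (−0.64 ± 0.20, adjusted p = 0.041). Neither line overlapped with its NT, but the OCT4-FKBP call at 2 h was lost without any one of its 4 libraries, NT replicate 1 (−0.68), NT replicate 2 (−0.58), 2 h replicate 1 (−0.62) or 2 h replicate 2 (−0.63). It was also lost with the size factors of DESeq2 (−0.63), without the filter (−0.63) and in the OCT4-FKBP libraries alone (−0.65).

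Stat3, which encodes the transcription factor that carries the LIF signal, had 18 member peaks with 1, 1 and 0 lost and 1, 2 and 3 gained at 2, 6 and 24 h in SOX2-FKBP, and 0, 0 and 1 lost and 0, 0 and 3 gained in OCT4-FKBP. The upstream Stat3 −12700 peak (chr11:100951835-100952507) had 23.4 and 35.4 in NT of SOX2-FKBP, 16.0 and 8.29 at 2 h, and 19.4 and 28.3 at 24 h. The 2 h libraries were below NT and the 24 h libraries overlapped with it, and the log2 change was −1.24 ± 0.37 at 2 h (adjusted p = 0.0254), a call lost without NT replicate 2 (−0.97) or 2 h replicate 2 (−0.82) and by DESeq2 (−1.28). In OCT4-FKBP it had 21.8 and 23.9 in NT, 42.2 and 36.7 at 2 h, 44.7 and 34.0 at 6 h, and 69.6 and 102 at 24 h. All treated OCT4-FKBP libraries were above NT, and the log2 change was 0.77 ± 0.33 at 2 h, which was called with the replicate block (0.76), and 1.89 ± 0.33 at 24 h (adjusted p = 2.49e-05).

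Intronic Stat3 +26932 (chr11:100912286-100913074) showed the reverse pattern. It had 14.8 and 8.49 in NT of SOX2-FKBP, 34.0 and 21.5 at 2 h, 34.0 and 38.6 at 6 h, and 71.8 and 75.5 at 24 h. Every library from 0.5 h on was above NT, and the log2 change was 1.15 ± 0.35 at 2 h (adjusted p = 0.0306) and 2.57 ± 0.30 at 24 h (adjusted p = 1.72e-08), the call at 2 h being lost without NT replicate 1 (1.68), NT replicate 2 (0.89) or 2 h replicate 1 (0.79) and by DESeq2 (1.17). Counts in OCT4-FKBP were 12.5 and 10.6 in NT and 15.9 and 7.72 at 24 h, which overlapped (0.06 ± 0.47). Intronic Stat3 +7745 (chr11:100931549-100932049) was gained in both lines at 24 h, from 17.4 and 25.5 to 57.3 and 41.5 in SOX2-FKBP (1.25 ± 0.30, adjusted p = 0.00198) and from 4.68 and 6.91 to 31.9 and 30.9 in OCT4-FKBP (2.37 ± 0.48, adjusted p = 0.000243), the former call being lost without NT replicate 1 (0.95) or 24 h replicate 1 (0.98). The Stat3 promoter peak, Stat3 −122 (chr11:100938756-100940220), had 326 and 344 in NT of SOX2-FKBP, 422 and 341 at 2 h and 513 and 436 at 24 h. Its 24 h gain in SOX2-FKBP (0.50 ± 0.15, adjusted p = 0.0132) was lost without NT replicate 1 (0.46), NT replicate 2 (0.54) or 24 h replicate 1 (0.36). The OCT4-FKBP libraries gave 414 and 369 in NT and 683 and 525 at 24 h, without overlap (0.63 ± 0.24, adjusted p = 0.0575), which was called with the replicate block (0.61).

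Socs3, the feedback inhibitor, had 25 member peaks, of which 1, 3 and 4 were lost and 0, 0 and 1 gained at 2, 6 and 24 h in SOX2-FKBP, and 1, 1 and 3 lost and 2, 5 and 2 gained in OCT4-FKBP. The distal Socs3 −26222 peak (chr11:117995968-117996932), in an intron of the neighbouring gene Pgs1, held the composite letters shown above. It had 60.8 and 94.9 in NT of SOX2-FKBP, 39.6 and 39.0 at 2 h, and 40.8 and 34.0 at 24 h. Its OCT4-FKBP counts were 92.8 and 106 in NT, 42.2 and 42.9 at 2 h, and 47.8 and 32.4 at 24 h. The treated libraries were below NT in both lines, with a log2 change at 2 h of −0.94 ± 0.25 (adjusted p = 0.00958) in SOX2-FKBP and −1.23 ± 0.29 (adjusted p = 0.00468) in OCT4-FKBP. The 2 h calls rested on single libraries, being lost in SOX2-FKBP without NT replicate 2 (−0.63), 2 h replicate 1 (−0.97) or 2 h replicate 2 (−0.93) and by DESeq2 (−0.98), and in OCT4-FKBP without NT replicate 2 (−1.11), 2 h replicate 1 (−1.22) or 2 h replicate 2 (−1.21). In NANOG-FKBP it had 81.5 and 64.8 in NT and 86.6, 185 and 109 at 24 h, and its log2 change of 0.66 ± 0.29 was not called (adjusted p = 0.344).

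Later losses near Socs3 appeared in both degron lines at different times. Socs3 +28039 (chr11:117941535-117942311) had 88.6 and 105 in NT of SOX2-FKBP, 66.0 and 83.7 at 2 h, 31.2 and 36.2 at 6 h, and 31.1 and 25.5 at 24 h. In OCT4-FKBP it had 136 and 103 in NT, 141 and 158 at 2 h, 156 and 123 at 6 h, and 46.4 and 34.0 at 24 h. It was lost by 6 h in SOX2-FKBP (−1.49 ± 0.22, adjusted p = 3.36e-06) but at 24 h in OCT4-FKBP (−1.56 ± 0.30, adjusted p = 0.000131), where its 6 h libraries overlapped with NT. Socs3 −6409 (chr11:117974939-117976812) fell by 1.17 ± 0.21 at 24 h in SOX2-FKBP, from 447 and 375 to 239 and 128. Among the gains, Socs3 +35620 (chr11:117934023-117935009) had 247 and 253 in NT of SOX2-FKBP and 446 and 305 at 24 h (0.59 ± 0.17, adjusted p = 0.0119), a call lost without NT replicate 1 (0.57), NT replicate 2 (0.60) or 24 h replicate 1 (0.26) and by DESeq2 (0.57). Socs3 +33670 (chr11:117936110-117936606) had 123 and 55.3 in NT of OCT4-FKBP and 228 and 185 at 24 h (1.23 ± 0.34, adjusted p = 0.00644), a call lost without NT replicate 2 (0.72) or 24 h replicate 1 (1.09). Both groups stood apart from NT in these pairs. No Socs3 peak had its summit within 500 bp of the 5′ end. The nearest, Socs3 +800 (chr11:117968755-117970186), had 336 and 303 in NT of SOX2-FKBP and 386 and 366 at 24 h and was not called (0.23 ± 0.15, adjusted p = 0.303).

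Gbx2, the homeobox target of STAT3, had 17 member peaks with 1, 1 and 2 lost and 0, 1 and 0 gained at 2, 6 and 24 h in SOX2-FKBP, and 0, 1 and 5 lost and 1, 0 and 0 gained in OCT4-FKBP. Downstream Gbx2 +8094 (chr1:89922908-89923906) had 46.9 and 68.0 in NT of SOX2-FKBP, 30.2 and 29.0 at 2 h, and 29.1 and 30.2 at 24 h. Counts in OCT4-FKBP were 102 and 97.9 in NT, 53.3 and 64.7 at 2 h, 60.0 and 62.2 at 6 h, and 62.3 and 34.0 at 24 h. The 2, 6 and 24 h libraries were below NT in both lines. The log2 change was −0.91 ± 0.28 at 2 h in SOX2-FKBP (adjusted p = 0.0336), a call lost without NT replicate 2 (−0.66), 2 h replicate 1 (−0.96) or 2 h replicate 2 (−0.88), by DESeq2 (−0.95) and with scaling by total counts (−0.83). In OCT4-FKBP it was −0.75 ± 0.24 at 2 h (adjusted p = 0.0528), which was called with the replicate block (−0.74), and −1.04 ± 0.27 at 24 h (adjusted p = 0.00369), a call lost without 24 h replicate 2 (−0.68). Upstream Gbx2 −4744 (chr1:89935525-89936502) was lost late in both lines, from 137 and 123 to 60.2 and 50.0 at 24 h in SOX2-FKBP (−1.25 ± 0.20) and from 200 and 212 to 119 and 66.4 in OCT4-FKBP (−1.15 ± 0.29). The OCT4-FKBP call was lost without 24 h replicate 2 (−0.80). The Gbx2 promoter peak, Gbx2 −103 (chr1:89930057-89931661), was called in no line. It had 207 and 186 in NT of OCT4-FKBP and 364 and 204 at 24 h, which overlapped (0.54 ± 0.23, adjusted p = 0.0895), and it was called there with the replicate block (0.50).

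**Figure D3:**
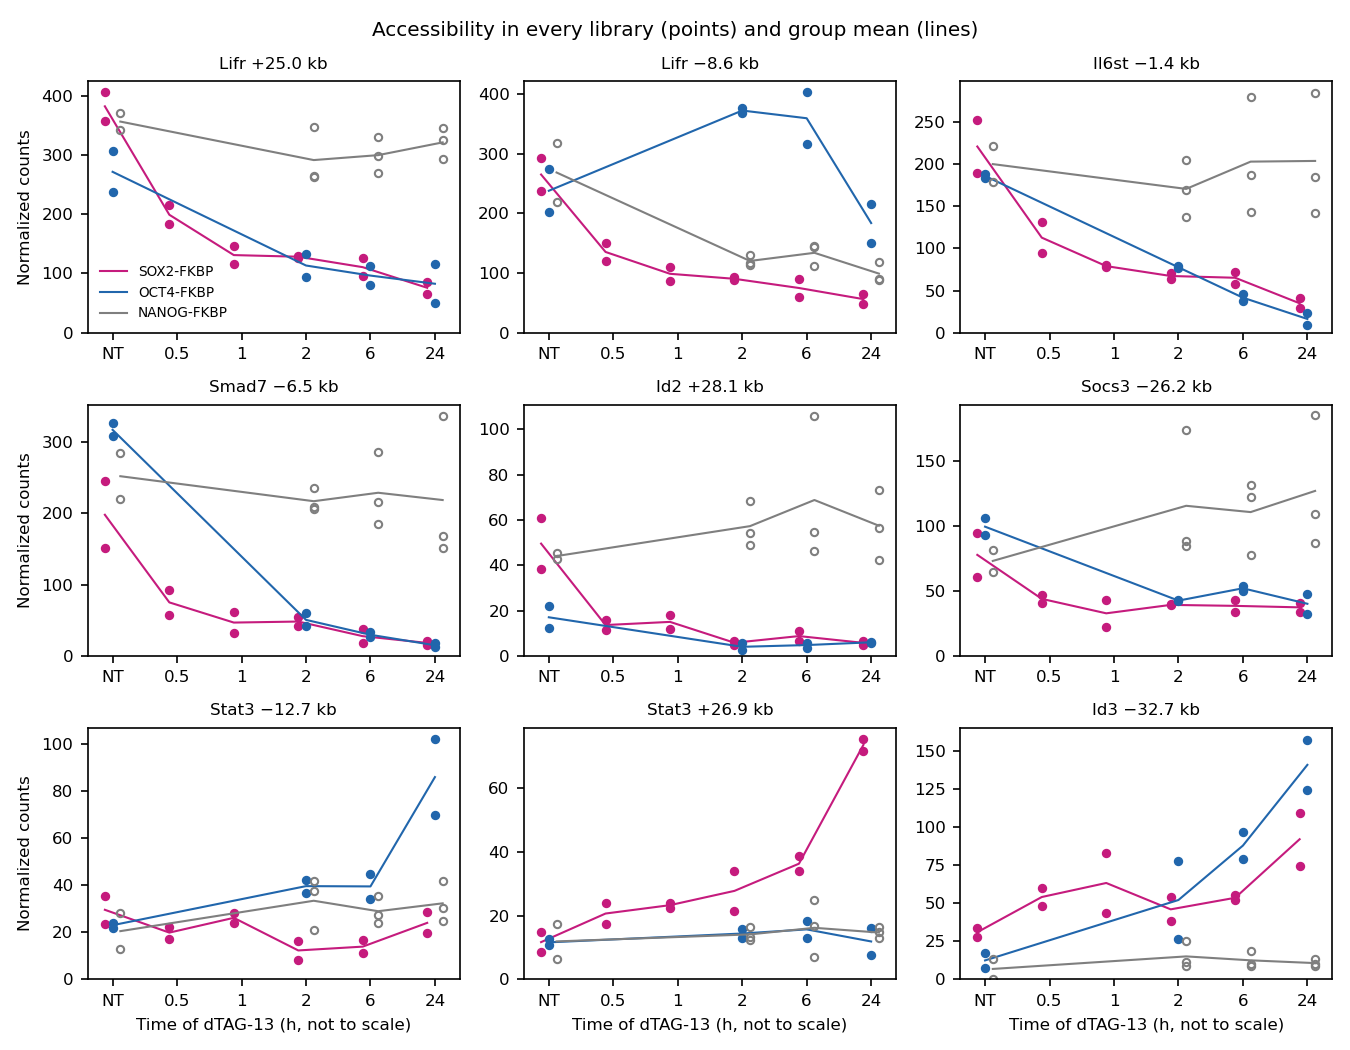
Normalized counts (y axis, from 0) of 9 member peaks in every library (points) with the mean of each group (lines) against time of dTAG-13 in h (x axis, not to scale), in SOX2-FKBP (magenta), OCT4-FKBP (blue) and NANOG-FKBP (grey, open). The panels for Lifr +24966, Il6st −1416 and Smad7 −6495 fall in the SOX2-FKBP and OCT4-FKBP lines, the Lifr −8552 panel falls in SOX2-FKBP and NANOG-FKBP but not at 2 or 6 h in OCT4-FKBP, and levels are comparable only within a line.

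Bmp4, which encodes the ligand, had 13 member peaks with 1, 2 and 3 lost and 1, 1 and 2 gained at 2, 6 and 24 h in SOX2-FKBP, and 0, 1 and 4 lost and 0, 1 and 0 gained in OCT4-FKBP. The Bmp4 promoter peak, Bmp4 +132 (chr14:46390233-46390792), was low in SOX2-FKBP, with 27.8 and 22.7 in NT and 11.6 and 30.2 at 24 h, which overlapped (−0.29 ± 0.40). The OCT4-FKBP libraries gave 134 and 124 in NT, 119 and 116 at 2 h, 91.8 and 82.1 at 6 h, and 72.5 and 38.6 at 24 h. The OCT4-FKBP libraries were lower than NT at each time, and the loss was called at 24 h (−1.21 ± 0.32, adjusted p = 0.00466), except without 24 h replicate 2 (−0.83). Bmp4 −22056 (chr14:46412141-46413310) had 71.2 and 83.5 in NT of SOX2-FKBP, 38.7 and 48.1 at 2 h, and 42.7 and 29.3 at 24 h. The groups did not overlap, and the log2 change was −0.81 ± 0.24 at 2 h (adjusted p = 0.0215), a call lost without NT replicate 1 (−0.94), NT replicate 2 (−0.71) or 2 h replicate 1 (−0.69) and by DESeq2 (−0.84), and −1.09 ± 0.25 at 24 h (adjusted p = 0.000979). Its OCT4-FKBP counts were 119 and 173 in NT and 103 and 90.8 at 2 h (−0.61 ± 0.27, adjusted p = 0.235), which was called with the replicate block (−0.60). The OCT4-FKBP loss was called at 6 h, with 67.3 and 81.5 (−0.98 ± 0.27, adjusted p = 0.0112), and at 24 h, with 53.6 and 119 (−0.78 ± 0.29, adjusted p = 0.049). The 6 h call was lost without NT replicate 2 (−0.66) or 6 h replicate 1 (−0.85), and the 24 h call without NT replicate 2 (−0.49) or 24 h replicate 1 (−0.29), without the filter (−0.76), in the OCT4-FKBP libraries alone (−0.76), with the size factors of DESeq2 (−0.71) and by DESeq2 itself (−0.71). Bmp4 −1209 (chr14:46391563-46392182), just upstream of the promoter, was lost at 24 h in both lines. It went from 139 and 180 to 61.1 and 55.7 in SOX2-FKBP (−1.43 ± 0.21) and from 210 and 216 to 79.7 and 85.0 in OCT4-FKBP (−1.37 ± 0.29). Bmp4 −27906 (chr14:46418280-46419941) had 90.3 and 73.6 in NT of SOX2-FKBP and 129 and 127 at 24 h (0.63 ± 0.19, adjusted p = 0.0121), a gain lost without NT replicate 2 (0.51) or 24 h replicate 1 (0.59) and by DESeq2 (0.61).

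The 3 Id genes encode inhibitors of bHLH factors and are the best-known BMP targets in these cells. Id1 had 22 member peaks with 2, 2 and 4 lost and 0 gained at 2, 6 and 24 h in SOX2-FKBP, and 0, 0 and 3 lost and 1, 1 and 1 gained in OCT4-FKBP. Upstream Id1 −9168 (chr2:152726325-152728505) had 298 and 323 in NT of SOX2-FKBP, 192 and 235 at 2 h, 173 and 173 at 6 h, and 121 and 109 at 24 h. In OCT4-FKBP it had 438 and 442 in NT, 530 and 450 at 2 h, 481 and 423 at 6 h, and 188 and 161 at 24 h. It fell without overlap from 2 h on in SOX2-FKBP (−0.53 ± 0.15 at 2 h, adjusted p = 0.0203, and −1.43 ± 0.16 at 24 h), whereas in OCT4-FKBP it was above NT at 2 h, overlapped with it at 6 h and fell at 24 h (−1.33 ± 0.26, adjusted p = 0.00018). The SOX2-FKBP call at 2 h was lost without NT replicate 1 (−0.59), NT replicate 2 (−0.47) or 2 h replicate 1 (−0.41) and by DESeq2 (−0.54). Downstream Id1 +36233 (chr2:152771683-152773268) had 168 and 139 in NT of SOX2-FKBP and 103 and 101 at 2 h (−0.60 ± 0.18, adjusted p = 0.023), a call lost without NT replicate 1 (−0.44), 2 h replicate 1 (−0.63) or 2 h replicate 2 (−0.59), by DESeq2 (−0.61) and with scaling by total counts (−0.52). The Id1 promoter peak, Id1 −32 (chr2:152735995-152736842), had 78.7 and 76.0 in NT of OCT4-FKBP and 142 and 116 at 24 h (0.74 ± 0.24, adjusted p = 0.0198), without overlap. This gain was lost without NT replicate 1 (0.76), NT replicate 2 (0.69) or 24 h replicate 1 (0.59), and with scaling by total counts (0.61). In SOX2-FKBP the promoter had 71.2 and 55.2 in NT and 56.3 and 66.1 at 24 h, which overlapped.

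Id2 had 15 member peaks with 2, 2 and 2 lost and 0, 3 and 6 gained at 2, 6 and 24 h in SOX2-FKBP, and 2, 2 and 2 lost and 1, 1 and 3 gained in OCT4-FKBP. A pair of distal peaks on either side of the gene was lost in both lines. Id2 +28106 (chr12:25068706-25069476) had 38.2 and 60.9 in NT of SOX2-FKBP, 11.6 and 15.6 at 0.5 h, 6.60 and 4.97 at 2 h, and 4.85 and 6.61 at 24 h. Counts in OCT4-FKBP were 21.8 and 12.2 in NT and 5.51 and 2.49 at 2 h. No treated library overlapped with NT at these times, and the log2 change at 2 h was −3.03 ± 0.39 (adjusted p = 3.30e-07) in SOX2-FKBP and −2.1 ± 0.51 (adjusted p = 0.00526) in OCT4-FKBP, the latter call being lost without NT replicate 1 (−1.68) or 2 h replicate 2 (−1.54). Id2 −27607 (chr12:25124285-25125054) went from 33.9 and 51 to 11.3 and 15.7 at 2 h in SOX2-FKBP (−1.58 ± 0.32) and from 92.0 and 80.3 to 25.7 and 22.4 in OCT4-FKBP (−1.84 ± 0.28). Id2 −11891 (chr12:25108456-25109355) was gained in SOX2-FKBP, where it had 115 and 66.5 in NT, 179 and 125 at 2 h, and 315 and 162 at 24 h. All its treated SOX2-FKBP libraries were above NT, and the log2 change at 24 h was 1.34 ± 0.25 (adjusted p = 7.45e-05). The OCT4-FKBP libraries gave 31.2 and 19.1 in NT and 78.1 and 32.3 at 2 h (1.12 ± 0.37, adjusted p = 0.0603), which was called with the replicate block (1.1).

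No Id2 peak had its summit within 500 bp of the 5′ end. The nearest, Id2 +923 (chr12:25095738-25096941), lies over the gene and had 239 and 234 in NT of SOX2-FKBP and 359 and 324 at 24 h. Its OCT4-FKBP counts were 214 and 224 in NT and 365 and 309 at 24 h. The 24 h libraries were above NT in both lines, with log2 changes of 0.53 ± 0.16 (adjusted p = 0.0113) and 0.62 ± 0.20 (adjusted p = 0.0219). The SOX2-FKBP call was lost without NT replicate 1 (0.55), NT replicate 2 (0.52) or 24 h replicate 1 (0.43), and the OCT4-FKBP call without NT replicate 1 (0.59), NT replicate 2 (0.63) or 24 h replicate 1 (0.51). Upstream Id2 −1724 (chr12:25098557-25099741), one of the 3 peaks with the paired GC site, had 77.9 and 94.7 in NT of OCT4-FKBP, 109 and 94.5 at 2 h, and 200 and 144 at 24 h. The 24 h libraries were above NT (0.99 ± 0.23, adjusted p = 0.00128), a call lost without 24 h replicate 1 (0.74). In SOX2-FKBP it had 117 and 103 in NT and 121 and 127 at 24 h and was not called (0.16 ± 0.20).

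Id3 had 17 member peaks with 0, 1 and 2 lost and 1, 0 and 2 gained at 2, 6 and 24 h in SOX2-FKBP, and 0, 1 and 2 lost and 1, 2 and 3 gained in OCT4-FKBP. Distal Id3 −32739 (chr4:136110559-136111076) had the largest gain in OCT4-FKBP among the peaks named here. It had 17.1 and 7.45 in NT, 78.1 and 26.1 at 2 h, 96.7 and 79.2 at 6 h, and 125 and 158 at 24 h. In SOX2-FKBP it had 27.8 and 34.0 in NT, 53.8 and 38.1 at 2 h, 55.1 and 52.0 at 6 h, and 110 and 74.6 at 24 h. All treated libraries were above NT in both lines, with log2 changes in OCT4-FKBP of 2.09 ± 0.43 at 2 h (adjusted p = 0.00086) and 3.58 ± 0.42 at 24 h (adjusted p = 2.06e-08), and in SOX2-FKBP of 1.60 ± 0.27 at 24 h (adjusted p = 1.76e-05). The OCT4-FKBP call at 2 h was lost without NT replicate 2 (1.56) or 2 h replicate 1 (1.15). Id3 +3451 (chr4:136146611-136148111) was lost in both lines, from 381 and 311 to 223 and 167 at 24 h in SOX2-FKBP (−0.84 ± 0.17) and from 786 and 456 to 207 and 249 in OCT4-FKBP (−1.44 ± 0.27). Id3 −3015 (chr4:136140337-136140803), with the paired GC site, had 98.2 and 95.2 in NT of OCT4-FKBP and 223 and 145 at 24 h (0.93 ± 0.26, adjusted p = 0.00613), a call lost without NT replicate 2 (0.88) or 24 h replicate 1 (0.60). The Id3 promoter peak, Id3 +261 (chr4:136143478-136144412), was called at no time and had 226 and 191 in NT of OCT4-FKBP and 384 and 247 at 24 h (0.60 ± 0.23, adjusted p = 0.0565), which was called with the replicate block (0.57).

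The 3 peaks with the paired GC site thus did not move alike. At 24 h of OCT4 depletion Id2 −1724 and Id3 −3015 were gained, while Id1 +3252 (chr2:152739203-152739908) had 57.7 and 74.5 in NT and 79.7 and 64.9 at 24 h, which overlapped (0.12 ± 0.29, adjusted p = 0.816). In SOX2-FKBP none of the 3 was called at 24 h, with log2 changes of −0.18 for Id1 +3252, 0.16 for Id2 −1724 and −0.07 for Id3 −3015.

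Smad7, the inhibitory SMAD, had 26 member peaks with 2, 1 and 4 lost and 0, 1 and 0 gained at 2, 6 and 24 h in SOX2-FKBP, and 1, 1 and 9 lost and 3, 2 and 1 gained in OCT4-FKBP. Smad7 −6495 (chr18:75360128-75361380) had 151 and 245 in NT of SOX2-FKBP, 57.9 and 92.1 at 0.5 h, 42.4 and 53.9 at 2 h, and 15.5 and 20.8 at 24 h. In OCT4-FKBP it had 308 and 327 in NT, 41.3 and 59.7 at 2 h, 26.3 and 32.8 at 6 h, and 17.4 and 12.4 at 24 h. Every treated library was below NT in both lines, and the 2 h mean was 24.3% of the NT mean in SOX2-FKBP and 15.9% in OCT4-FKBP. SOX2-FKBP had log2 changes of −1.43 ± 0.25 at 0.5 h, −2.0 ± 0.25 at 2 h and −3.41 ± 0.30 at 24 h, and OCT4-FKBP of −2.63 ± 0.29 at 2 h (adjusted p = 5.77e-08) and −4.40 ± 0.38 at 24 h. The 0.5 h call was lost without 0.5 h replicate 1 (−1.07) and by DESeq2 (−1.42). In NANOG-FKBP it had 285 and 220 in NT and 152, 336 and 168 at 24 h, which overlapped.

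Further upstream, Smad7 −22389 (chr18:75344155-75345772) had 290 and 280 in NT of SOX2-FKBP, 207 and 160 at 2 h, 251 and 218 at 6 h, and 204 and 138 at 24 h. Counts in OCT4-FKBP were 128 and 328 in NT, 513 and 634 at 2 h, 496 and 691 at 6 h, and 117 and 346 at 24 h. The treated SOX2-FKBP libraries were below NT, while in OCT4-FKBP the 2 h and 6 h libraries were above NT and the 24 h libraries overlapped with it. It fell by 0.64 ± 0.17 at 2 h in SOX2-FKBP (adjusted p = 0.0101), a call lost without NT replicate 1 (−0.61), NT replicate 2 (−0.66) or 2 h replicate 2 (−0.46). It rose by 1.32 ± 0.33 at 2 h in OCT4-FKBP (adjusted p = 0.00666), a call lost without NT replicate 1 (0.81) or 2 h replicate 2 (1.18), by DESeq2 (1.34) and in the OCT4-FKBP libraries alone (1.32). Downstream Smad7 +38288 (chr18:75404961-75405948) had 73.3 and 78.7 in NT of OCT4-FKBP and 117 and 117 at 24 h (0.62 ± 0.22, adjusted p = 0.0373), a gain lost without NT replicate 1 (0.58), NT replicate 2 (0.66), 24 h replicate 1 (0.64) or 24 h replicate 2 (0.62), and with scaling by total counts (0.50). No Smad7 peak had its summit within 500 bp of the 5′ end, and the nearest, Smad7 −660 (chr18:75366387-75367867), had 541 and 497 in NT of SOX2-FKBP and 642 and 565 at 24 h and was not called (0.21 ± 0.17).

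Calls by edgeR at the promoter peaks of these genes, without the replicate block, came only at 24 h and did not cover all of them. Of the 7 promoter peaks (Stat3, Lifr, Il6st, Gbx2, Id1, Id3 and Bmp4), edgeR called 0 at 2 h in SOX2-FKBP (1 lower at an unadjusted p under 0.05, 0 by DESeq2) and 0 at 2 h in OCT4-FKBP (0 at an unadjusted p under 0.05, 0 by DESeq2). At 6 h it called 0 in each line (1 higher in each at an unadjusted p under 0.05, 0 by DESeq2), whereas with the replicate block Il6st was gained (0.50) and Bmp4 lost (−0.58) in OCT4-FKBP and Stat3 gained (0.33) in SOX2-FKBP. At 24 h 2 were gained in SOX2-FKBP, Stat3 and Il6st, while in OCT4-FKBP Il6st and Id1 were gained and Bmp4 was lost. DESeq2 called 1 lost and 4 gained at 24 h in OCT4-FKBP, and the replicate block added Stat3, Gbx2 and Id3 to the gained promoters. Gains at 24 h were common to promoters as a class: over the promoter peaks of all coding genes, taken by the same rule, 25.7% of 12146 were gained and 1.94% lost in SOX2-FKBP, and 51.6% of 12206 gained and 1.65% lost in OCT4-FKBP. At 2 h these shares were 0.206% and 0.93% in SOX2-FKBP and 0.647% and 0.295% in OCT4-FKBP. The difference in change between both lines was called for 0 of the 7 promoters at 24 h (1 at an unadjusted p under 0.05, 0 by DESeq2, lowest adjusted p = 0.301 at Id1).

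**Figure D4:**
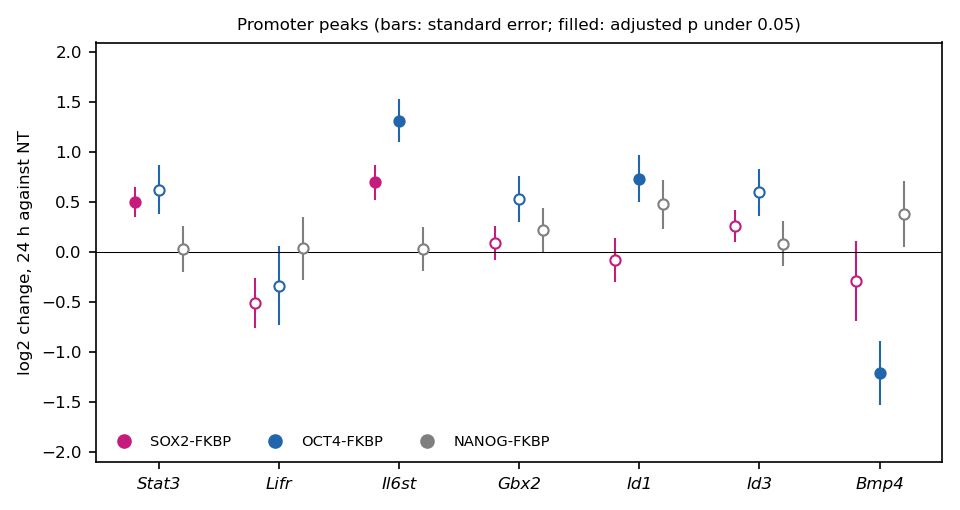
Log2 change at 24 h against NT (y axis) of the promoter peaks of 7 member genes (x axis) in SOX2-FKBP (magenta), OCT4-FKBP (blue) and NANOG-FKBP (grey), with bars for the standard error and filled points for an adjusted p under 0.05. The Il6st promoter lies at 0.70 in SOX2-FKBP and 1.32 in OCT4-FKBP, the Bmp4 promoter at −1.21 in OCT4-FKBP, and the NANOG-FKBP points at 0.03 to 0.48, none of them called.

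Calls at the promoters of other genes of both pathways also came mostly at 24 h, when most of these promoters were still uncalled in SOX2-FKBP. The LIF list held Lif, the oncostatin M receptor, JAK kinases, adaptors, other STATs, SOCS genes and the targets Pim1, Pim3 and Junb, with 231 peaks within the same distance. The BMP list held ligands, receptors, SMADs and their regulators, extracellular inhibitors, Id4 and Dusp9, with 265. Of 32 promoter peaks of these genes, 0 were called at 2 h in SOX2-FKBP (1 lower and 2 higher at an unadjusted p under 0.05, 0 by DESeq2) and 0 at 2 h in OCT4-FKBP (2 higher at an unadjusted p under 0.05, 0 by DESeq2). The calls before 24 h were gains of Lif at 1 h (0.88 ± 0.26, adjusted p = 0.0318) and Dusp9 at 6 h (0.63 ± 0.18, adjusted p = 0.0167) in SOX2-FKBP, and of Lif (1.45 ± 0.30, adjusted p = 0.0005), Dusp9 (0.76 ± 0.22, adjusted p = 0.0124) and Jak1 (0.63 ± 0.20, adjusted p = 0.0318) at 6 h in OCT4-FKBP. These genes were named after their values were seen, and each call was lost without single libraries, in SOX2-FKBP without NT replicate 1, NT replicate 2 or the treated replicate 1, and in OCT4-FKBP without 6 h replicate 1 (Lif 1.01, Dusp9 0.51, Jak1 0.55), NT replicate 1 (Dusp9 0.69, Jak1 0.51) or NT replicate 2 (Jak1 0.78). DESeq2 dropped both SOX2-FKBP calls, and the OCT4-FKBP calls of Dusp9 and Jak1 were lost in the libraries of that line alone (0.76 and 0.63), that of Jak1 also with scaling by total counts (0.58). The SOX2-FKBP values without those libraries were 0.73 to 1.06 for Lif and 0.44 to 0.78 for Dusp9. At 24 h, 1 was lost and 9 gained in SOX2-FKBP, of which DESeq2 called 1 and 1, and 0 were lost and 19 gained in OCT4-FKBP (DESeq2 23 gained), beside 25.7% and 51.6% gained of all coding gene promoters. In OCT4-FKBP the promoter of Jak1 (chr4:101264336-101265474), a kinase of the LIF receptor, had 154 and 183 in NT and 419 and 337 at 24 h (1.16 ± 0.21, adjusted p = 4.14e-05). The promoter of Smad5 (chr13:56702493-56704243), which carries the BMP signal, had 141 and 166 in NT and 403 and 300 at 24 h (1.19, adjusted p = 8.77e-05). The promoter of the BMP receptor gene Bmpr1a (chr14:34501745-34503463) had 129 and 140 in NT and 368 and 252 at 24 h (1.20, adjusted p = 0.000376). All 24 h libraries were above NT at these 3 promoters. In SOX2-FKBP the leading gains at 24 h were smaller. Dusp9 (chrX:73638913-73640420), a MAP kinase phosphatase gene, had 102 and 86.4 in NT and 174 and 142 at 24 h (0.72 ± 0.19, adjusted p = 0.00334). Junb (chr8:84978637-84978976), an AP-1 gene, had 83.4 and 76.5 in NT and 105 and 143 (0.62, adjusted p = 0.017), and Socs1 (chr16:10784415-10787009), another inhibitor of JAK signalling, had 428 and 379 and then 599 and 523 (0.47, adjusted p = 0.0208). The 24 h groups were above NT without overlap at all 3, but each call was lost without single libraries, for Dusp9 NT replicate 2 (0.62) or 24 h replicate 1 (0.54), for Junb NT replicate 1 (0.69), NT replicate 2 (0.57) or 24 h replicate 2 (0.37), and for Socs1 NT replicate 1 (0.56), NT replicate 2 (0.39) or 24 h replicate 1 (0.34).

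At 2 h, 7 member peaks were lost after depletion of either SOX2 or OCT4: Socs3 −26222, Lifr +24966, Il6st −1416, Il6st −23844, Id2 +28106, Id2 −27607 and Smad7 −6495. Another 11 were called lost in SOX2-FKBP without a call in OCT4-FKBP, 5 of them near Lifr. Among the 181 member peaks tested in both fits these were 3.87% and 6.08%, against 3.06% and 4.41% of 155681 peaks. The reverse, lost in OCT4-FKBP without a call in SOX2-FKBP, had 0 peaks by edgeR (3 at an unadjusted p under 0.05, 1 by DESeq2), against 1.84% of all peaks. These counts set SOX2-FKBP calls of the fit of 12 libraries against OCT4-FKBP calls of the fit of 27. Over all peaks at 2 h, the former called 11680 lost in SOX2-FKBP. The fit of 27 called 8427 lost in SOX2-FKBP and 8480 in OCT4-FKBP, so part of the surplus of SOX2-FKBP calls comes with the unlike fits. A call in one line and not in the other does not show a difference, so the difference of the changes was tested itself. It was called at 2 h for 5 member peaks (2.73%, background 1.57%), at 6 h for 5 (2.73%, background 2.73%) and at 24 h for 4 (2.19%, background 2.77%).

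The 5 peaks at 2 h all had a more negative change in SOX2-FKBP. The difference (SOX2-FKBP minus OCT4-FKBP, log2) was −2.14 ± 0.33 for Lifr −8552 (adjusted p = 0.00015), −2.25 ± 0.51 for Lifr −10687 (adjusted p = 0.00998), −2.56 ± 0.63 for Lifr −19021 (adjusted p = 0.0224), −1.89 ± 0.47 for Smad7 −22389 (adjusted p = 0.0238) and −1.95 ± 0.53 for Stat3 −12700 (adjusted p = 0.0446). Lifr −8552 was called at 2 h whichever single library was left out, and it differed also at 6 h (−2.36 ± 0.33) and 24 h (−1.82 ± 0.35). The other calls at 2 h rested on single libraries. Scaling by total counts also dropped the calls of Lifr −19021 (−2.51), Smad7 −22389 (−1.83) and Stat3 −12700 (−1.90). DESeq2 also dropped the calls of Smad7 −22389 (−1.90) and Stat3 −12700 (−1.97). That of Lifr −10687 was lost without SOX2-FKBP 2 h replicate 1 (−2.19), OCT4-FKBP NT replicate 1 (−1.87) or OCT4-FKBP 2 h replicate 2 (−1.94). That of Lifr −19021 was lost without SOX2-FKBP NT replicate 2 (−2.37), 2 h replicate 1 (−2.36) or 2 h replicate 2 (−3.05), or OCT4-FKBP NT replicate 1 (−2.12) or 2 h replicate 2 (−1.74). That of Smad7 −22389 was lost without SOX2-FKBP NT replicate 1 (−1.96), NT replicate 2 (−2.01) or 2 h replicate 2 (−1.80), or OCT4-FKBP NT replicate 1 (−1.38) or 2 h replicate 2 (−1.84). That of Stat3 −12700 was kept without SOX2-FKBP NT replicate 1 (−2.35) or 2 h replicate 1 (−2.57) and was lost without SOX2-FKBP NT replicate 2 (−1.75) or 2 h replicate 2 (−1.62) or any one of the OCT4-FKBP libraries, NT replicate 1 (−1.89), NT replicate 2 (−2.11), 2 h replicate 1 (−1.85) or 2 h replicate 2 (−2.16). The count of 5 was 2 without SOX2-FKBP NT replicate 2, 3 without either SOX2-FKBP 2 h library, 1 without OCT4-FKBP NT replicate 1 and 2 without OCT4-FKBP 2 h replicate 2. With the replicate block 8, 16 and 15 member peaks differed at 2, 6 and 24 h, among them Lifr −5270 at 2, 6 and 24 h (−1.34, −1.24 and −1.19 without and −1.38, −1.28 and −1.24 with the block) and Smad7 −22389 at 6 h (−1.60 without and −1.69 with the block).

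At 6 h the calls were Lifr −8552, Lifr −10687 (−1.88 ± 0.51), Stat3 −12700 (−1.78 ± 0.51), Socs3 +28039 (−1.68 ± 0.38) and Id3 −32739 (−2.04 ± 0.59), all more negative in SOX2-FKBP. The calls of Lifr −8552 and Socs3 +28039 were kept whichever single library was left out. That of Lifr −10687 was lost without SOX2-FKBP NT replicate 2 (−1.83) or 6 h replicate 2 (−1.50), or OCT4-FKBP NT replicate 1 (−1.51) or 6 h replicate 2 (−1.34). That of Stat3 −12700 was lost without SOX2-FKBP NT replicate 2 (−1.58) or either 6 h library (−2.17 and −1.59), or OCT4-FKBP NT replicate 1 (−1.72), NT replicate 2 (−1.94) or 6 h replicate 1 (−1.57). That of Id3 −32739 was lost without any SOX2-FKBP NT or 6 h library (−1.99 to −2.29), or without OCT4-FKBP NT replicate 2 (−1.57) or 6 h replicate 1 (−1.89). DESeq2 also dropped the calls of Lifr −10687 (−1.89), Stat3 −12700 (−1.79) and Id3 −32739 (−2.02). Scaling by total counts dropped the same calls (−1.85, −1.73 and −1.98). The count of 5 was 2 without SOX2-FKBP NT replicate 2, 3 without SOX2-FKBP 6 h replicate 1, 2 without 6 h replicate 2 and 3 without OCT4-FKBP NT replicate 1. At 24 h 2 peaks were more negative in SOX2-FKBP, Lifr −8552 and Stat3 −12700 (−2.11 ± 0.50), and 2 more positive, Stat3 +26932 (2.56 ± 0.60) and Smad7 +20021 (1.64 ± 0.46). Smad7 +20021 (chr18:75387307-75387868), in an intron of Smad7, had 64.3 and 63.7 in NT of SOX2-FKBP and 53.4 and 47.2 at 24 h, while in OCT4-FKBP it had 115 and 94.7 in NT and 29.0 and 24.7 at 24 h (−1.95 ± 0.33, adjusted p = 2.34e-05). The call of Stat3 −12700 at 24 h was lost without SOX2-FKBP NT replicate 2 (−1.85) or 24 h replicate 1 (−1.90), or OCT4-FKBP 24 h replicate 2 (−1.81), and that of Stat3 +26932 without SOX2-FKBP NT replicate 2 (2.27) or OCT4-FKBP 24 h replicate 2 (2.14). That of Smad7 +20021 was lost without any one of the SOX2-FKBP NT and 24 h libraries, OCT4-FKBP NT replicate 1 or either OCT4-FKBP 24 h library (1.50 to 1.74). It was also lost by DESeq2 (1.58) and with the size factors of DESeq2 in edgeR (1.57). With the size factors of DESeq2 in the same test, 3 were more negative and 1 more positive at 24 h. The count of 4 was 1 without SOX2-FKBP NT replicate 2, 2 without SOX2-FKBP 24 h replicate 1 and 1 without OCT4-FKBP 24 h replicate 2.

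**Figure D5:**
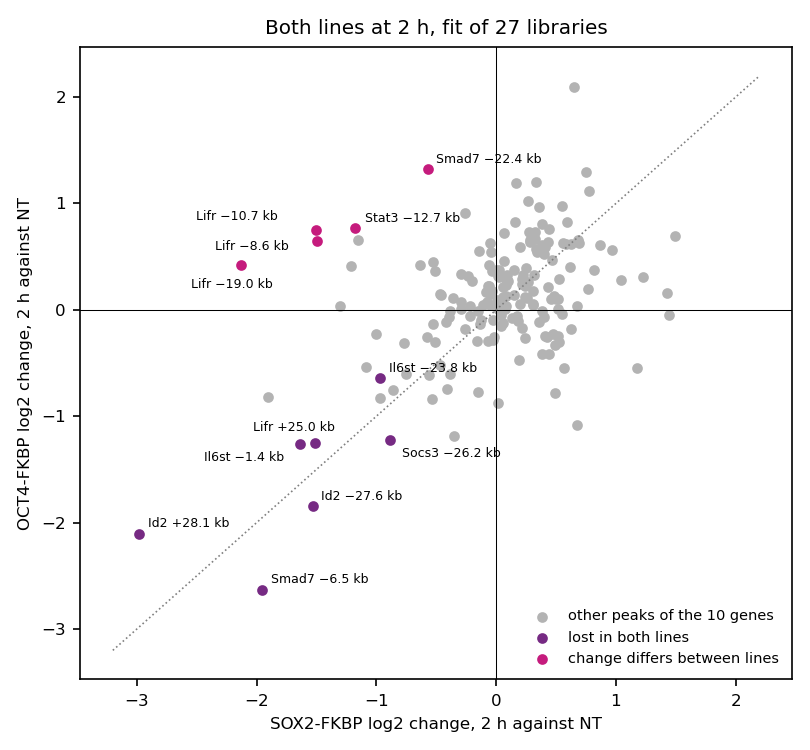
Log2 change at 2 h against NT in SOX2-FKBP (x axis) and OCT4-FKBP (y axis) of the member peaks, both from the fit of 27 libraries. Peaks called lost in both lines are purple, with the SOX2-FKBP calls taken from the fit of 12 libraries. Peaks whose change differed between the lines are magenta, and the line of equal change is dotted. The 7 purple points lie at the lower left, and the 5 magenta points lie left of 0 in SOX2-FKBP and above 0 in OCT4-FKBP.

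NANOG depletion left nearly all member peaks uncalled. At 2 h, 2 of 183 were lost (1.09%, background 0.938%) and 0 gained (background 0.0162%), at 6 h 2 were lost (1.09%, background 1.08%) and 0 gained (background 0.0367%), and at 24 h 5 were lost (2.73%, background 2.25%) and 0 gained (background 0.288%). The 0 gained peaks stand beside 7, 8 and 6 at an unadjusted p under 0.05 at 2, 6 and 24 h and 0 by DESeq2 at each time. Lifr −8552 was lost at all 3 times, as was Socs3 +22930 (chr11:117946705-117947319). Socs3 +22930 had 58.8 and 34.8 in NT of NANOG-FKBP, 13.4, 6.21 and 13.2 at 2 h, 9.37, 3.41 and 22.7 at 6 h, and 10.1, 8.62 and 6.14 at 24 h. Every treated library was below both NT libraries, with log2 changes of −1.90 ± 0.44 (adjusted p = 0.0176), −2.02 ± 0.44 (adjusted p = 0.00822) and −2.46 ± 0.45 (adjusted p = 0.000549). In SOX2-FKBP this peak had 71.2 and 70.8 in NT and 140 and 94.3 at 1 h, where it was gained (0.75 ± 0.22, adjusted p = 0.0286). At 24 h it was below NT in SOX2-FKBP, with 57.3 and 34.0 (−0.64 ± 0.24, adjusted p = 0.0521), which was called with the replicate block (−0.63). It was lost in OCT4-FKBP at 24 h, from 30.4 and 68.6 to 11.6 and 27.8 (−1.37 ± 0.41, adjusted p = 0.0118), a call dropped without NT replicate 2 (−0.66) or 24 h replicate 1 (−0.85). The calls of Socs3 +22930 were lost in NANOG-FKBP without NT replicate 1 (−1.46, −1.59 and −2.02 at 2, 6 and 24 h), 2 h replicate 1 (−2.07), 2 h replicate 3 (−1.93) or 6 h replicate 1 (−1.69), and in SOX2-FKBP without NT replicate 1 (0.75), NT replicate 2 (0.75) or 1 h replicate 1 (0.41) and by DESeq2 (0.73).

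At 24 h Lifr −10687, Id1 +36233 and Smad7 −22389 were also lost in NANOG-FKBP. Smad7 −22389 had 409 and 231 in NT and 106, 121 and 71.3 at 24 h, without overlap (−1.74 ± 0.33, adjusted p = 0.000955), a call lost without NT replicate 1 (−1.27). Id1 +36233 had 195 and 183 in NT and 111, 103 and 108 at 24 h, without overlap (−0.81 ± 0.22, adjusted p = 0.0376), and this call was lost without NT replicate 1 (−0.76), NT replicate 2 (−0.86), 24 h replicate 1 (−0.84), 24 h replicate 2 (−0.79) or 24 h replicate 3 (−0.81). Lifr −10687 had 77.5 and 50.6 in NT and 26.3, 17.2 and 12.3 at 24 h (−1.69 ± 0.40, adjusted p = 0.00939), a call lost without NT replicate 1 (−1.34) or 24 h replicate 3 (−1.41). Without NANOG-FKBP NT replicate 1, 0, 0 and 1 member peaks were lost at 2, 6 and 24 h, and the counts were 0 without 2 h replicate 1, 0 without 6 h replicate 1 and 3 without 24 h replicate 3. The treated replicate 2 libraries had the fewest fragments in peaks (1817191 at 2 h) and the highest mitochondrial share (17.6%), and without these libraries 2, 2 and 4 were lost.

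The letters of the SOX site went with the early losses, as a description with no test. Within 150 bp of the summit on either side, 34.9% of all windows and 67 of 183 member windows (36.6%) held CATTGT or CTTTGT. Among the 18 peaks lost at 2 h of SOX2 depletion 15 held them, made up of 7 of the 7 lost in both lines and 8 of the 11 called in SOX2-FKBP without a call in OCT4-FKBP, and all 5 peaks that differed between the lines at 2 h held them. Among the 99 windows of peaks that were never called 30 held them, and among those lost at 24 h in either line 25 of 50. The POU octamer lay in 5 member windows (2.73%, 6.32% of all windows) and in 2 of the 18. It lay in 1 of the 7 lost in both lines and in 1 of the 11 called in SOX2-FKBP without a call in OCT4-FKBP. STAT letters lay in 19 (10.4%, 8.63% of all) and in 2 of the 18. The composite lay in 1 (0.546%, 1.29% of all), and its TTGT overlaps with the SOX letters. The single GC site GGCGCC lay in 18 (9.84%, 5.83% of all) and in 0 of the 18. A match does not show that a factor binds there, and a missing match says only that these letters are not in the window.

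Nearness does not show which gene a peak acts on: 42 of the 190 peaks were nearer to the 5′ end of another coding gene than to that of the member, among them 11 nearest to Pgs1 in the Socs3 window and 8 nearest to Cox4i2 in the Id1 window, 111 were intergenic, 59 lay in an intron and 20 in an exon or UTR. Totals of counted fragments per library were 5664738 to 10887645 in SOX2-FKBP, 6378962 to 17575631 in OCT4-FKBP and 1817191 to 12437876 in NANOG-FKBP. Of the marker genes looked up, the stem cell genes Nanog, Esrrb, Zfp42, Tfcp2l1 and Klf4 had a promoter peak, Pou5f1 had none within 500 bp, and the genes Hbb-bt and Alb of other cells had none. Cdx2, Gata6, Sox17 and Neurog1, genes of other lineages, also had promoter peaks. Peaks were called on merged libraries, so their presence does not check the label of a line or separate cell types.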

How the data were processed

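ATACseq libraries of SOX2-FKBP, OCT4-FKBP and NANOG-FKBP mouse embryonic stem cells were analysed from the raw counts deposited by the authors, the number of fragments over each peak (31 libraries of 45 samples, the other 14 not analysed here). The authors aligned reads to mm10 with bwa mem (BWA 0.7.17-r1188 per the submitters' processing notes), kept mapping quality of at least 10 (SAMtools 1.10), removed duplicates with Picard 2.12.0, merged the libraries to call peaks (MACS2) and took the fragments overlapping each peak as its count. A shift of read ends for the transposase is not given in the sources used here. The deposited peak list gives a fold enrichment (a ratio to local background of the merged libraries), which was used for no comparison, and the summits. Because peaks were called on merged libraries, a peak does not show that a given library is open there.

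Member peaks, promoter peaks (summit nearest to the 5′ end and within 500 bp of it, for all coding genes too) and annotation came from GENCODE vM21 on the same build. The members, the lists and the naming rule were chosen with earlier results of these data known. The test was the quasi-likelihood test of edgeR 4.0.16 (R 4.3.3) after TMM scaling, with Benjamini-Hochberg adjustment over all peaks and a threshold of 0.05. It was run on 160432 peaks whose count exceeded 10 in over 2 of 12 SOX2-FKBP libraries, and on 166430 peaks whose count exceeded 10 in over 6 of 27 libraries of the 3 lines. SOX2-FKBP changes are from the former, all others from the latter. The fits were tested on simulated data. Normalized counts are counts per TMM-scaled library. Named peaks were, for each gene, the promoter peak, up to 2 lost at 2 h in each of SOX2-FKBP and OCT4-FKBP, 1 gained at 24 h in each, 1 called in NANOG-FKBP and 1 that differed between lines at 2 h, each with the lowest adjusted p, and 3 other promoters in each line at 24 h. Alternatives were DESeq2 1.42.0 (Wald test), its size factors in edgeR, total counts, no filter, a replicate block, fits of 1 line and leaving out each library.

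The replicate numbers come from the labels. Same-numbered libraries deviated together in SOX2-FKBP (r across peaks 0.109 to 0.348 over 15 pairs) and OCT4-FKBP (0.413 to 0.646 over 6 pairs), so that the numbers pair the libraries there, but not in NANOG-FKBP, where pairs with NT gave −0.0746 to 0.0608. The main fits held no replicate block, so their calls and p-values ignore this pairing. With the block, the member calls at 2 h and 6 h in OCT4-FKBP went from 16 and 25 to 39 and 50. The line differences at 24 h went from 4 to 15. Motif letters were searched in Python 3.11.15 on both strands within 150 bp of the summit.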

Additional observations from a re-analysis of the deposited data

Results flagged for a closer look

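The change differed between SOX2-FKBP and OCT4-FKBP, by the test of the difference itself in the fit of 27 libraries (edgeR, adjusted p under 0.05), for 5 member peaks (2 h), 5 (6 h) and 4 (24 h). Differences are SOX2-FKBP minus OCT4-FKBP on the log2 scale. At 2 h they were −2.14 at Lifr −8552, −2.25 at Lifr −10687, −2.56 at Lifr −19021, −1.89 at Smad7 −22389 and −1.95 at Stat3 −12700. At 6 h they were −2.36 at Lifr −8552, −1.88 at Lifr −10687, −1.68 at Socs3 +28039, −2.04 at Id3 −32739 and −1.78 at Stat3 −12700. At 24 h they were −1.82 at Lifr −8552, −2.11 at Stat3 −12700, 2.56 at Stat3 +26932 and 1.64 at Smad7 +20021. Lifr −8552, upstream of the LIF receptor gene, and Stat3 −12700, upstream of Stat3, were the peaks called at all 3 times without the replicate block. The Stat3 −12700 difference was not called by DESeq2 at 2 h (−1.97) or 6 h (−1.79). Scaling by total counts dropped it at these times too (−1.90 and −1.73), and leaving out single libraries dropped it at each time. With the block 8, 16 and 15 member peaks differed, among them Lifr −5270 at all 3 times (−1.38, −1.28 and −1.24) and Lifr −19021 (−1.67) and Smad7 −22389 (−1.69) at 6 h. The lines also differ in parental strain and laboratory of origin, so factor and line cannot be told apart. Groups of 2 or 3 libraries are too small for the search for single outlying libraries.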

How the results depend on the processing

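Over the 30 peaks of the naming rule, 126 called values were recomputed under 1243 alternatives: 1012 stayed called in the same direction, 231 were no longer called and 0 changed sign. Of those no longer called, 172 came from leaving out 1 library, which leaves 1 library in that group that is assumed to vary like the others, and 33 from DESeq2. DESeq2 (Wald) called 3, 9, 12 and 15 member peaks at 0.5, 1, 2 and 6 h in SOX2-FKBP, and 3 and 2 line differences at 2 and 6 h. Scaling by total counts gave 2 and 2 line differences at 2 and 6 h and moved the median change of all peaks at 24 h in OCT4-FKBP from −0.01 to −0.14. OCT4-FKBP libraries alone gave 9 calls at 2 h. The replicate block called 15 and 37 at 0.5 and 2 h in SOX2-FKBP, 39 and 50 at 2 and 6 h in OCT4-FKBP, and 8, 16 and 15 line differences at 2, 6 and 24 h. In NANOG-FKBP, where the numbers did not pair the libraries, it called 6, 7 and 8 at 2, 6 and 24 h. Leaving out 1 library gave 0 to 6, 7 to 20, 13 to 19, 19 to 21 and 34 to 41 calls at 0.5, 1, 2, 6 and 24 h in SOX2-FKBP, 6 to 12, 14 to 21 and 24 to 51 at 2, 6 and 24 h in OCT4-FKBP, 0 to 2, 0 to 2 and 1 to 4 in NANOG-FKBP, and 1 to 5, 2 to 6 and 1 to 5 line differences. The counts under each alternative, line differences included, are given without the share over all peaks in the same setting. Most groups had 2 libraries, which limits the precision of every change.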

Other observations

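Peaks within the same distance of the other genes of both pathways, outside their promoters too, were called in both directions. Near the 16 other LIF pathway genes, such as Jak1 and Socs1, 221 peaks were tested in SOX2-FKBP and 225 in OCT4-FKBP. At 2 h, 8 were lost in SOX2-FKBP (3.62%, against 7.28% of all peaks tested) and 6 gained (2.71% against 1.46%), and at 24 h 28 were lost (12.7% against 14.1%) and 20 gained (9.05% against 9.17%). In OCT4-FKBP 5 were lost at 2 h (2.22% against 5.1%) and 14 gained (6.22% against 1.92%), and at 24 h 26 were lost (11.6% against 12.7%) and 27 gained (12% against 10.8%). Near the 22 other BMP pathway genes, such as Smad5 and Bmpr1a, 224 and 229 peaks were tested. At 2 h, 9 were lost in SOX2-FKBP (4.02% against 7.28%) and 4 gained (1.79% against 1.46%), and at 24 h 18 were lost (8.04% against 14.1%) and 35 gained (15.6% against 9.17%). In OCT4-FKBP 4 were lost at 2 h (1.75% against 5.1%) and 7 gained (3.06% against 1.92%), and at 24 h 16 were lost (6.99% against 12.7%) and 37 gained (16.2% against 10.8%). In NANOG-FKBP at 24 h 3 of 225 were lost near the LIF pathway genes (1.33%), and 3 of 229 were lost and 1 gained near the BMP pathway genes, against 2.25% lost and 0.288% gained of all peaks. The change differed between SOX2-FKBP and OCT4-FKBP at 2, 6 and 24 h for 2, 3 and 3 of the 225 LIF pathway peaks (0.889%, 1.33% and 1.33%) by edgeR. It differed for 0, 3 and 3 of the 229 BMP pathway peaks, against 1.57%, 2.73% and 2.77% of all peaks.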
